A study of Caenorhabditis elegans with 12 samples.

Results

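The genes of the mitochondrial respiratory chain that are encoded in the nucleus were examined across wild type worms, *raga-1* mutants and *raga-1* mutants with neuronal rescue. They were chosen by name. A gene counted as a member if its symbol in the deposited table began with *nuo*, *ucr*, *cox*, *asb*, *asg*, *cyc*, *coq*, *sdha*, *sdhb* or *sdhd* and a number, if it was one of *atp-1* to *atp-5*, or if it was *isp-1*, *gas-1*, *lpd-5*, *mev-1* or *clk-1*. The rule found 42 of the 21882 genes in the table, and all 42 passed the filter on low counts that left 15728 genes for testing. They comprise 8 genes of complex I, 5 of complex II, 7 of complex III, 2 for cytochrome c, 4 for the assembly of complex IV, 8 of complex V and 8 for the synthesis of ubiquinone. The structural subunits of complex IV carry other symbols in the table and are described separately under their current names.

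In the respiratory chain, complexes I and II pass electrons to ubiquinone, complex III passes them on to cytochrome c, and complex IV hands them to oxygen. The protons pumped on the way drive complex V, the ATP synthase. In *C. elegans* the chain is best known from long-lived mutants with reduced function, among them *isp-1*, which encodes the Rieske iron-sulfur protein of complex III, and *clk-1*, which encodes a hydroxylase of ubiquinone synthesis. Mutants of *gas-1*, a core subunit of complex I, and of *mev-1*, the cytochrome b subunit of complex II, are known instead as short-lived and sensitive to oxidative stress.

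RNA-Seq was performed on whole worms at the middle of the L4 stage, with 4 samples per group, each from its own egg lay, on HT115 bacteria carrying the empty vector L4440. The groups were wild type (N2), the deletion mutant *raga-1(ok386)*, which lacks the RagA GTPase that activates TORC1, and a rescue strain. The rescue strain carries the same deletion and an extrachromosomal array that expresses *raga-1* cDNA, with mCherry behind it, from the *rab-3* promoter. The paper reports slower development and smaller bodies in the mutant, and that neuronal *raga-1* from a single copy transgene rescued neither. Whether the strains matched in stage within L4 was not tested here. The comparison asks which changes of the mutant are still present when *raga-1* is returned to neurons. The array is a multicopy transgene, the promoter is known to leak into the intestine in adults, and the rescue worms were moved by picking under fluorescence, whereas the other strains were washed off their plates, so handling and strain cannot be told apart.

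Total counts lay between 14287510 and 35619305 per sample, and the members took 1.10 to 1.18% of the counts in wild type, 0.969 to 1.00% in the mutant and 0.956 to 1.01% in rescue. Levels are in CPM, read counts relative to the TMM-adjusted library size. The level of *raga-1* itself was 61.8 to 70.2 CPM for wild type, 1.42 to 1.76 for the mutant and 805 to 891 for rescue. Wild type replicates 1 and 3 stood apart from replicates 2 and 4, with summed levels of 6 adult stage genes of 8778 and 10423 CPM against 29053 and 27131 CPM. The same sum was 17620 to 34292 CPM in the mutant and 16130 to 30128 CPM in rescue. Wild type samples were collected on days 2, 4, 6 and 8 and the others on days 1, 2, 4 and 6. Of 6 germ line markers, 2 passed as lower against wild type in the mutant and 3 in the rescue strain, and their summed level was 1991 to 2147 CPM for wild type, 1697 to 1776 for the mutant and 1546 to 1704 for rescue. The list was divided in the mutant, with 3 of the 6 above 0 and a median log2 fold change of -0.07, and its lower sum came from *glh-1* (mean 730 CPM for wild type and 458 for the mutant) and *pgl-1* (506 and 389). The 7 sperm markers summed to 617 to 790, 341 to 508 and 256 to 338 CPM in the same order, with 3 lower in the mutant and 4 in rescue. The 6 neuronal markers summed to 170 to 195, 215 to 228 and 259 to 273 CPM, with 2 higher in each strain than in wild type. These were *egl-3* and *sbt-1* in both strains. The other neuronal markers had log2 fold changes of 0.00 to 0.16 in the mutant (adjusted p = 0.263 to 0.991). In rescue they had 0.25 to 0.34, also without passing. Of 5 intestinal and 5 body wall muscle markers, 1 each was higher in the mutant, and 1 muscle marker was higher in rescue. The 5 hypodermal markers summed to 98.8 to 1202 CPM in wild type, 250 to 379 in the mutant and 459 to 812 in rescue. Over all tested genes, 9.01% were lower and 6.36% higher in the mutant, and 13.5% lower and 10.2% higher in rescue. None of the markers was at 0 in any sample. Their part in the results for the respiratory chain genes was not tested, and in bulk samples fewer cells of a type and less RNA per cell cannot be told apart.

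Loss of *raga-1* was accompanied by lower levels of respiratory chain genes, and *isp-1* alone among them was higher. At an adjusted p-value under 0.01 in edgeR's quasi-likelihood test, 16 of the 42 members were lower, where 9.01% of all tested genes were. The 1 member that was higher was *isp-1*, where 6.36% of all tested genes were higher. With collection day as a block over all 12 samples, 7 members were lower and *isp-1* missed the threshold, and with only these 2 groups and the day block no member passed. Shares of all tested genes, here and below, are from the fit of all 12 samples with TMM scaling and no block. For the other settings none is given, so fewer member calls and fewer calls over all genes cannot be told apart. The median log2 fold change of the members was -0.22, against 0.00 over all tested genes, and it lay below 0 for 40 of the 42, against 49.7% of all tested genes. In 26 members all 4 mutant samples lay below all 4 wild type samples, where 15.9% of all tested genes did so, and only in *isp-1* did all lie above (13.1%). At an unadjusted p-value under 0.05, 32 members passed (40.7% of all tested genes), and at an adjusted p-value under 0.05, 26 were lower (16.2%) and 1 higher (12.9%).

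In rescue animals respiratory chain genes were also lower than in wild type, *isp-1* among them. Against wild type, 20 of the 42 members were lower, where 13.5% of all tested genes were, and with the day block 14 were lower, or 0 with only these 2 groups and that block. With library size alone 13 were lower, at a median of -0.14, where the median of all tested genes was 0.14. None was higher by edgeR, where 10.2% of all tested genes were, none was higher at an unadjusted p-value under 0.05, and DESeq2 called none higher and 25 lower. The median log2 fold change was -0.24, against 0.04 over all tested genes, and 40 of the 42 members lay below 0, against 46% of all genes. All rescue samples lay below all wild type samples in 28 members (18.3% of all tested genes). At an unadjusted p-value under 0.05, 33 members passed (47.7% of all tested genes), and at an adjusted p-value under 0.05, 27 were lower (20.5%) and none higher (18.3%). Since the wild type samples are shared, the comparisons are not independent. When the 3 groups were compared in a single test, 19 members passed, where 21.1% of all tested genes did.

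Summed over the 42 members, wild type reached 12263, 11055, 11823 and 11707 CPM in its 4 samples. The mutant reached 10338, 10116, 9607 and 9605 CPM, and rescue 10074, 9841, 8847 and 9043 CPM. All 8 samples of the mutant and rescue strains thus lay below all wild type samples, and the 2 strains overlapped. The mean of the summed level was 84.7% of wild type in the mutant against 80.7% in rescue. Within the collection days that hold all 3 groups, with 1 sample per group, the median of the members for mutant against wild type was -0.26 on day 2, -0.23 on day 4 and -0.25 on day 6 on the log2 scale. For rescue against wild type it was -0.27, -0.26 and -0.31 on the same days.

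**Figure D1:**
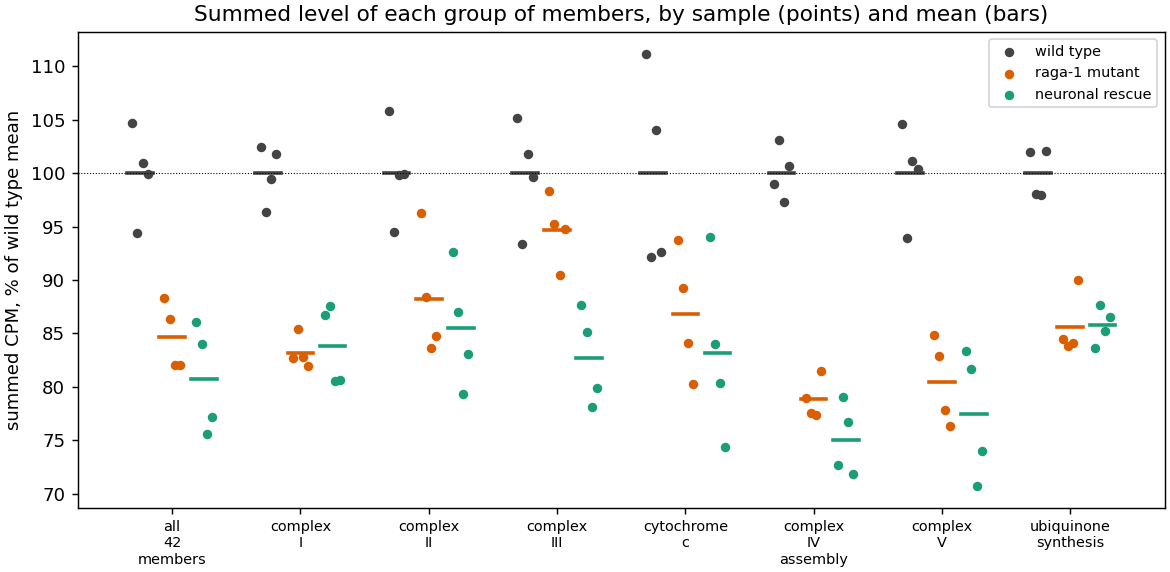
Summed CPM of all 42 members and of each functional group, as percent of the wild type mean (y axis, which does not start at 0), for each of the 4 samples per strain (points) with the mean (bars). For the full set, complex I, complex V, complex IV assembly and the ubiquinone genes, mutant and rescue samples all lie below wild type. Complex III of the mutant averages 94.7% of wild type and overlaps it.

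Complex I, the entry point for electrons from NADH, had a summed level of 83.2% of wild type in the mutant against 83.9% in rescue. All 8 members lay below 0 in both comparisons. In each, 4 passed the test as lower (9.01% and 13.5% of all tested genes), namely *nuo-1*, *nuo-2*, *nuo-4* and *nuo-5*. The most abundant of them was *nuo-1*, the subunit that binds NADH and flavin, at 480, 462, 470 and 477 CPM for wild type, 393, 408, 386 and 384 for the mutant and 402, 395, 389 and 374 for rescue. Neither strain overlapped wild type for *nuo-1*, and its log2 fold change was -0.27 in the mutant (standard error 0.05, adjusted p = 0.00127) and -0.28 in rescue (0.05, adjusted p = 0.000608). The iron-sulfur subunit *nuo-5* had a log2 fold change of -0.34 in the mutant (adjusted p = 0.00414) and -0.36 in rescue (adjusted p = 0.00194). With the day block, *nuo-1* missed the threshold in the mutant (adjusted p = 0.0108) and *nuo-5* in both strains (0.0459 and 0.0294). Its call in the mutant was lost in 5 of 12 fits that left out 1 sample, with an adjusted p of up to 0.0145 without mutant replicate 4. The call for *nuo-2* in the mutant was lost in 2 of 12, with an adjusted p of up to 0.0129 without mutant replicate 4.

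For *gas-1* the levels were 253, 205, 225 and 233 CPM for wild type, 193, 188, 182 and 189 for the mutant and 232, 239, 198 and 189 for rescue. The mutant samples lay below all wild type samples, with an adjusted p of 0.0242 that did not pass the threshold, and rescue overlapped both other groups. Among the members, *gas-1* had the highest log2 fold change for rescue against mutant, 0.19, which did not pass (standard error 0.08, adjusted p = 0.276). The accessory subunit gene *lpd-5* gave 143, 134, 141 and 138 CPM for wild type, 119, 128, 135 and 120 for the mutant and 125, 131, 120 and 119 for rescue, and neither difference from wild type passed (adjusted p = 0.0654 and 0.0299). Outside the naming rule, 22 other complex I genes showed the same direction. All 22 had log2 fold changes below 0 in both strains. Of these, 9 passed as lower in the mutant (9.01% of all tested genes) and 12 in rescue (13.5%). Among them, *nduf-2.2* had a log2 fold change of -0.39 in the mutant (adjusted p = 0.00134) and -0.51 in rescue (adjusted p = 0.000137). For *F37C12.3*, now named *ndab-2*, it was -0.40 (adjusted p = 0.00115) and -0.43 (adjusted p = 0.000444).

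Complex II, succinate dehydrogenase, also serves the TCA cycle. Its 5 members summed to 88.2% of wild type in the mutant against 85.5% in rescue, and *sdha-2* was the only one past the test in both strains. This gene encodes 1 of the 2 versions of the flavoprotein subunit, and it was at 127, 151, 132 and 142 CPM for wild type, 115, 118, 106 and 121 for the mutant and 102, 106, 105 and 107 for rescue. Neither strain overlapped wild type, with log2 fold changes of -0.26 (standard error 0.06, adjusted p = 0.00826) and -0.39 (0.06, adjusted p = 0.000469). Both calls were lost with the day block (adjusted p = 0.0706 and 0.0128). The call in the mutant was lost in 11 of 12 fits that left out 1 sample, with an adjusted p of up to 0.0247 without mutant replicate 3. The membrane anchor gene *sdhd-1* passed in rescue (-0.37, adjusted p = 0.00953) and not in the mutant (-0.24, adjusted p = 0.0768), and its call was lost in 10 of 12 such fits, with an adjusted p of up to 0.0371 without rescue replicate 3. Levels of *mev-1* were 130, 118, 126 and 126 CPM for wild type, 129, 108, 110 and 105 for the mutant and 116, 113, 103 and 108 for rescue. The rescue samples of *mev-1* lay below all wild type samples and the mutant samples overlapped them, with log2 fold changes of -0.14 (adjusted p = 0.141) and -0.18 (adjusted p = 0.0524).

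Within complex III, *isp-1* parted from the other members. The gene (WBGene00002162, WBcel235 chromosome IV, 8134016 to 8136055, minus strand, protein coding) was at 534, 487, 533 and 515 CPM in wild type. In the mutant it was at 642, 631, 601 and 719 CPM, and in rescue at 451, 420, 396 and 404 CPM. The 3 groups did not overlap at all, with the mutant highest, wild type between and rescue lowest. Against wild type its log2 fold change was 0.33 in the mutant (standard error 0.07, adjusted p = 0.00388) and -0.31 in rescue (0.07, adjusted p = 0.0037), and that of rescue against mutant was -0.63 (0.07, adjusted p = 0.000855). The calls of *isp-1* were known from these data beforehand, so only its place among the members is new, as a description.

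Ranked by log2 fold change among the 42 members, *isp-1* came first for mutant against wild type and last for rescue against mutant, and it kept both places under all 23 alternative settings. For rescue against wild type it ranked 27th from the top, between 24th and 30th under the alternatives, and so lay among the other members. On each of days 2, 4 and 6 it was first for mutant against wild type and last for rescue against mutant, and also last on day 1, where only those 2 strains were collected. Significance of the rise in the mutant was less stable than its rank. For mutant against wild type, the call was lost when wild type replicate 2 or 4 or mutant replicate 1, 2 or 4 was left out, with log2 values of 0.30, 0.32, 0.32, 0.34 and 0.27 and adjusted p-values of 0.0107, 0.0114, 0.0113, 0.0103 and 0.0112. The fall in rescue against wild type was lost without wild type replicate 3 or rescue replicate 3 or 4 (-0.29, -0.28 and -0.29, adjusted p = 0.0119, 0.0147 and 0.0147), and with library size alone (-0.21, adjusted p = 0.0167). Fitting only the mutant and wild type samples also ended the call in the mutant (0.33, adjusted p = 0.0121). With collection day as a block over all 12 samples, *isp-1* missed the threshold against wild type in the mutant (0.31, adjusted p = 0.0209) and in rescue (-0.33, adjusted p = 0.0122). Rescue against mutant also missed it (-0.63, adjusted p = 0.0124), while with the day block and only these 2 strains it passed (-0.63, adjusted p = 0.00529).

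A measure that does not depend on scaling between libraries also set the mutant apart. It rises with *isp-1* and also when the other complex III members fall, as they did here. Of all counts on the 7 complex III members, *isp-1* took 23.5, 24.1, 24.2 and 23.9% in wild type, 30.2, 30.7, 30.7 and 35.1% in the mutant and 23.8, 22.8, 23.5 and 23.4% in rescue. The mutant samples lay above all others, while rescue and wild type overlapped. Without *isp-1*, the complex III members summed to 85.1% of wild type in the mutant against 83.3% in rescue. Per kilobase of annotated exon, *isp-1* was the fifth most abundant member in wild type at 525 CPM per kb, close to *ucr-11* at 522, and rose to 657 CPM per kb in the mutant, place 4 of the 42, and fell to 424 in rescue, place 7.

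Cytochrome c1 (*cyc-1*) and core protein 1 (*ucr-1*) had levels close to that of *isp-1* in wild type, and lay below wild type in both strains. Levels of *cyc-1* were 552, 487, 528 and 501 CPM for wild type, 475, 466, 411 and 389 for the mutant and 435, 419, 386 and 403 for rescue. Neither strain overlapped wild type for *cyc-1*, whose log2 fold change of -0.25 in the mutant did not pass (adjusted p = 0.0261) and of -0.33 in rescue did (adjusted p = 0.00442). For *ucr-1* it was -0.21 (adjusted p = 0.0139) and -0.24 (adjusted p = 0.00553). Each of these rescue calls was lost in 5 of 12 fits that left out 1 sample, with an adjusted p of up to 0.0181 for *cyc-1* without rescue replicate 3 and 0.0222 for *ucr-1* without rescue replicate 4. The rescue call of *ucr-1* was also lost with the day block (adjusted p = 0.0169).

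**Figure D2:**
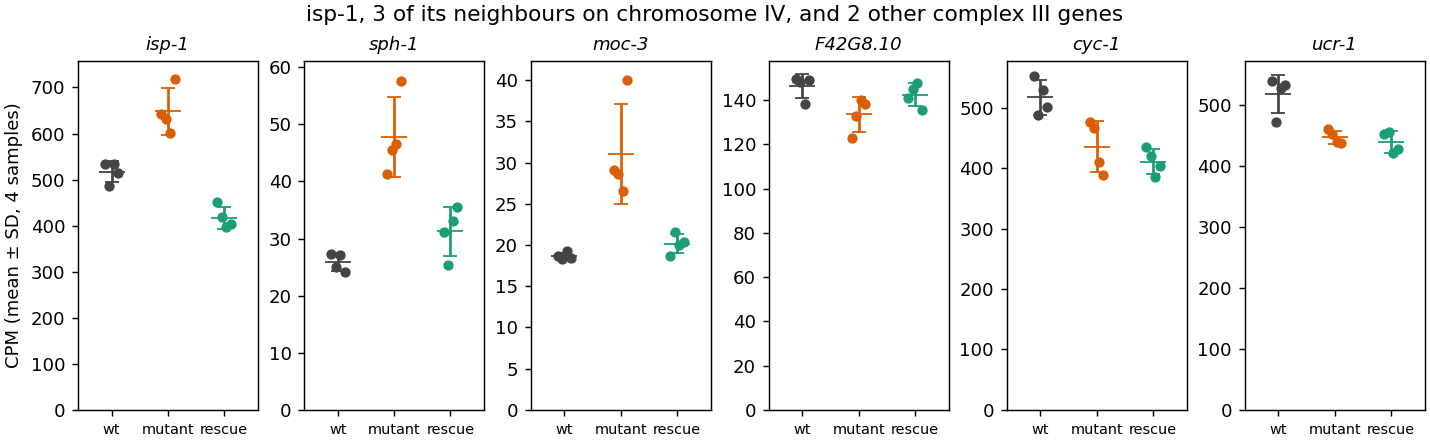
Levels in CPM (y axes from 0) of *isp-1*, of its neighbours *sph-1*, *moc-3* and *F42G8.10*, and of the complex III genes *cyc-1* and *ucr-1*, for the 4 samples of each strain (points) with mean and SD. The mutant samples are highest for *isp-1*, *sph-1* and *moc-3*, and lower than wild type for *cyc-1* and *ucr-1*.

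The genes beside *isp-1* on chromosome IV were looked up for their position alone. The nearest gene on the same strand, *sph-1*, begins 458 bp away and was at 27.3, 25.0, 27.2 and 24.1 CPM for wild type, 41.3, 45.6, 46.6 and 57.6 for the mutant and 31.1, 25.4, 33.0 and 35.5 for rescue. The mutant samples lay above all others, with a log2 fold change against wild type of 0.88 (standard error 0.12, adjusted p = 0.000273). The following gene, *moc-3*, lies on the opposite strand and was at 18.7, 18.3, 19.2 and 18.5 CPM for wild type, 29.1, 28.6, 26.6 and 40.0 for the mutant and 18.7, 21.5, 20.0 and 20.4 for rescue, again highest in the mutant (0.73, adjusted p = 0.000693). For rescue against mutant the log2 fold changes of -0.61 and -0.62 did not pass (adjusted p = 0.0238 and 0.0185). The annotated ends of *sph-1* and *moc-3* overlap, so reads there could be assigned to either, since use of strand in the counting is not given in the sources used here. Mutant replicate 4 was the highest sample for all 3 genes. One gene further, the complex I gene *F42G8.10*, now named *ndub-11*, had a log2 fold change of -0.13 in the mutant (adjusted p = 0.0895). On the other side of *isp-1*, *islo-1* and *pmk-3* had 0.49 (adjusted p = 0.0285) and 0.25 (adjusted p = 0.0814) in the mutant, and *pmk-3* was higher in rescue than in wild type (0.46, adjusted p = 0.00374). The gene *pmk-2*, a p38 MAP kinase gene like *pmk-3*, was higher in both strains (0.62, adjusted p = 0.00161, and 0.64, adjusted p = 0.000784).

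Over the 12 samples, the genes whose log2 CPM followed that of *isp-1* most closely were on other chromosomes or far away on chromosome IV. They were *ZK1010.4* (Pearson r = 0.98), *Y55F3AM.11* (0.95), *clec-50* (0.94), *F52C6.3* (0.89) and *fbxc-45* (0.89). Among the other members the highest r was 0.49, for *cox-10*, followed by 0.37 for *asb-1* and 0.35 for *sdhd-1*. The 12 samples are 3 groups of 4 and share the scaling of the libraries, so these values are a description.

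Core protein 2 of complex III is encoded by several genes, which are described in turn. For *ucr-2.3* (chromosome III, 879860 to 881458) the values were 122, 135, 123 and 132 CPM for wild type, 110, 101, 97.0 and 104 for the mutant and 85.2, 89.7, 91.8 and 87.8 for rescue. The 3 groups did not overlap, and the log2 fold change was -0.31 in the mutant (standard error 0.05, adjusted p = 0.00152) and -0.53 in rescue (0.05, adjusted p = 3.09e-05), and the mutant call was lost with the day block (adjusted p = 0.0217). For rescue against mutant it was -0.22, which did not pass (adjusted p = 0.0708). The X-linked *ucr-2.1* was at 214, 182, 205 and 199 CPM for wild type, 189, 172, 189 and 177 for the mutant and 207, 203, 176 and 182 for rescue. All groups overlapped for *ucr-2.1*, and it passed in neither strain (adjusted p = 0.156 and 0.536). The X-linked *ucr-2.2* was at 145, 118, 135 and 132 CPM for wild type, 113, 107, 96.4 and 102 for the mutant and 127, 123, 104 and 110 for rescue. Its mutant samples lay below wild type (-0.34, adjusted p = 0.00925), but this call was lost in 10 of 12 fits that left out 1 sample, with an adjusted p of up to 0.0281 without mutant replicate 3. In rescue *ucr-2.2* overlapped wild type (-0.19, adjusted p = 0.0819). Outside the naming rule, *T27E9.2* and *F45H10.2*, 2 of 4 further complex III genes, were lower in both strains. Their log2 fold changes in the mutant were -0.35 and -0.23. Of the others, *T02H6.11* lay above 0 in both strains without passing (0.12, adjusted p = 0.174, and 0.20, adjusted p = 0.0316). *R07E4.3* lay below 0 without passing (-0.12, adjusted p = 0.291, and -0.06, adjusted p = 0.601). Over all tested genes, 9.01% were lower in the mutant and 13.5% in rescue.

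Cytochrome c showed the largest change of all members. The minor gene *cyc-2.2* (chromosome V, 12611682 to 12612218) was at 69.0, 60.0, 62.3 and 54.5 CPM for wild type, 36.1, 31.9, 36.7 and 35.5 for the mutant and 31.6, 29.4, 33.8 and 29.3 for rescue. Neither strain overlapped wild type, and they overlapped each other, with log2 fold changes of -0.81 in the mutant (standard error 0.08, adjusted p = 3.59e-05) and -0.99 in rescue (0.08, adjusted p = 6.36e-06). The major gene *cyc-2.1*, second among the members in wild type at 1375 CPM per kb where *cyc-2.2* had 140, was at 838, 692, 787 and 702 CPM for wild type, 729, 697, 649 and 620 for the mutant and 736, 656, 622 and 578 for rescue. For *cyc-2.1* all groups overlapped, and it passed in neither strain (-0.16, adjusted p = 0.194, and -0.22, adjusted p = 0.0711). The number of *cyc-2.2* counts per *cyc-2.1* count was 0.0815 ± 0.0039 in wild type (SD, n = 4), 0.0523 ± 0.0056 in the mutant and 0.0482 ± 0.0053 in rescue.

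Genes for the assembly of complex IV had the lowest summed level relative to wild type, 78.9% in the mutant against 75.0% in rescue. In both strains 3 of the 4 passed as lower (9.01% and 13.5% of all tested genes). The gene *cox-11*, which delivers copper to the enzyme, was at 21.3, 23.6, 21.7 and 21.6 CPM for wild type, 14.9, 14.8, 13.8 and 17.1 for the mutant and 15.1, 13.8, 14.5 and 13.6 for rescue. Its log2 fold change was -0.54 in the mutant (standard error 0.08, adjusted p = 0.000455) and -0.63 in rescue (0.08, adjusted p = 8.99e-05), with no overlap with wild type. The copper chaperone gene *cox-17* was at 10.8, 11.1, 11.6 and 12.2 CPM for wild type, 8.69, 8.31, 9.06 and 7.28 for the mutant and 8.17, 8.21, 9.07 and 8.13 for rescue. Neither strain overlapped wild type here either (-0.46, adjusted p = 0.00223, and -0.45, adjusted p = 0.00166). The heme A synthase gene *cox-15* fell by 0.34 and 0.41 on the log2 scale (adjusted p = 0.00084 and 0.000129), whereas *cox-10*, for the preceding step of heme synthesis and the least abundant member per kb, gave -0.05 and -0.14 (adjusted p = 0.637 and 0.124). With the day block only *cox-11* of these genes passed in the mutant, while *cox-15* (adjusted p = 0.0148) and *cox-17* (0.0235) did not, and *cox-17* was lost in rescue as well (0.0187).

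The structural subunits of complex IV were added after the values of the members had been seen, by applying the naming rule to current gene symbols, which brought in 11 more genes of the table. The 7 subunits *cox-4*, *cox-5A*, *cox-5B*, *cox-6A*, *cox-6B*, *cox-6C* and *cox-7C* had log2 fold changes of -0.17 to 0.03 in the mutant and of -0.21 to 0.07 in rescue. None of the 7 passed against wild type in edgeR or in DESeq2, and in each strain 1 reached an unadjusted p-value under 0.05 in edgeR. Their summed level was 2353 to 2483 CPM for wild type, 2037 to 2411 for the mutant and 2065 to 2494 for rescue, overlapping in all groups and averaging 93.7% and 94.8% of wild type. Of the 3 assembly genes found in this way, *cox-14* and *cox-18* were lower in both strains (-0.32 and -0.43 in the mutant, -0.40 and -0.63 in rescue) and *cox-19* in rescue (-0.40, adjusted p = 0.00341). The difference between subunits and assembly genes was not tested.

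**Figure D3:**
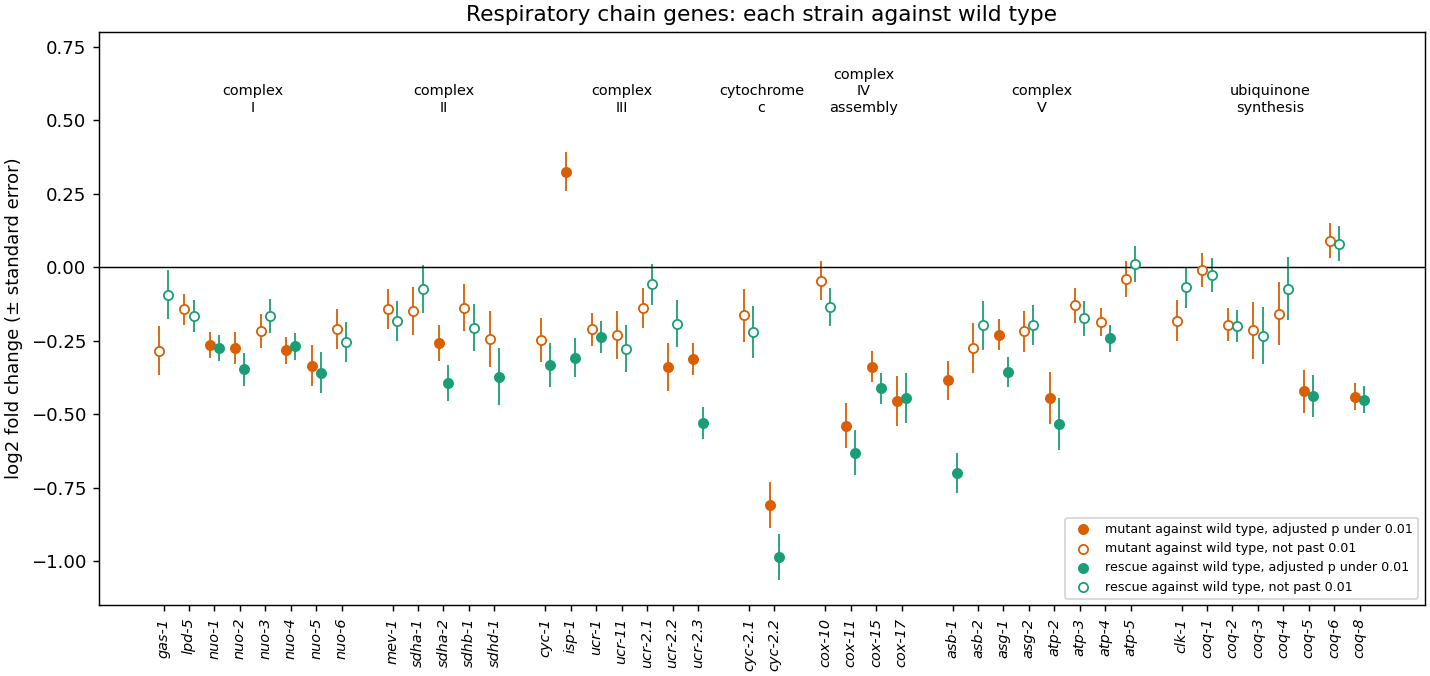
Log2 fold change against wild type (y axis, with standard error) of the 42 members, grouped by complex, for the mutant (orange) and rescue (green). Filled points passed an adjusted p of 0.01. In the mutant, *isp-1* at 0.33 is the only filled point above 0, and *cyc-2.2* is lowest in both strains (-0.81 and -0.99).

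Complex V, the ATP synthase, contributed the member with the most CPM in all 3 strains, the catalytic beta subunit gene *atp-2*. Per kilobase it was first in wild type at 1501 CPM per kb, and second to *cyc-2.1* in the mutant (1103 against 1227) and in rescue (1036 against 1180). The level of *atp-2* was 3070, 2657, 2990 and 2867 CPM for wild type, 2317, 2202, 1975 and 2018 for the mutant and 2223, 2099, 1739 and 1936 for rescue. Neither strain overlapped wild type, with log2 fold changes of -0.44 (standard error 0.09, adjusted p = 0.00325) and -0.53 (0.09, adjusted p = 0.0007). The mutant call was lost without wild type replicate 3 or mutant replicate 3 or 4, with an adjusted p of up to 0.0117 without mutant replicate 4. The alpha subunit gene *atp-1*, found only by its current symbol, was at 2467 to 2707 CPM for wild type, 2073 to 2306 for the mutant and 1969 to 2215 for rescue (-0.25, adjusted p = 0.0136, and -0.32, adjusted p = 0.00234). At the other end, *atp-5*, a subunit of the stalk, overlapped wild type in both strains (-0.04 and 0.01, adjusted p = 0.657 and 0.919). Of 5 further complex V genes outside the naming rule, 1 was lower in the mutant (9.01% of all tested genes) and 2 in rescue (13.5%). Summed over the 8 complex V members, the level was 80.5% of wild type in the mutant against 77.4% in rescue.

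Subunit b is encoded by *asb-1* on chromosome III (4594543 to 4595821) and *asb-2* on X, and only the autosomal copy passed the test. The values for *asb-1* were 235, 261, 246 and 237 CPM for wild type, 207, 186, 188 and 169 for the mutant and 148, 163, 143 and 148 for rescue. The 3 groups did not overlap, with wild type highest and rescue lowest, and the log2 fold change was -0.39 in the mutant (standard error 0.07, adjusted p = 0.00156), -0.70 in rescue (0.07, adjusted p = 1.93e-05) and, not past the threshold, -0.32 between rescue and mutant (0.07, adjusted p = 0.0393). The mutant call was lost with the day block (adjusted p = 0.0118). For *asb-2* the values were 442, 371, 433 and 426 CPM for wild type, 373, 340, 342 and 326 for the mutant and 411, 385, 327 and 335 for rescue, with overlap between all groups and no call (adjusted p = 0.0291 and 0.0821). Counts of *asb-1* per count of *asb-2* were 0.590 ± 0.076 in wild type (SD, n = 4), 0.542 ± 0.017 in the mutant and 0.416 ± 0.038 in rescue, and all rescue samples lay below all others.

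Subunit g is encoded by *asg-1* on chromosome I and *asg-2* on X. Levels of *asg-1* were 155, 153, 151 and 160 CPM for wild type, 137, 138, 129 and 124 for the mutant and 128, 121, 121 and 114 for rescue, with no overlap between wild type and either strain. Its log2 fold change was -0.23 in the mutant (adjusted p = 0.00672), a call lost in 11 of 12 fits that left out 1 sample (adjusted p up to 0.0228 without mutant replicate 4) and with the day block (adjusted p = 0.0157), and -0.36 in rescue (adjusted p = 0.0003). Levels of *asg-2* were 219, 179, 195 and 199 CPM for wild type, 171, 175, 171 and 162 for the mutant and 188, 179, 161 and 164 for rescue. The mutant samples of *asg-2* lay below wild type and rescue overlapped it, with no call (-0.22, adjusted p = 0.0318, and -0.20, adjusted p = 0.0402). The other flavoprotein gene of complex II, *sdha-1*, is also on X and was at 230, 179, 205 and 195 CPM for wild type, 193, 186, 173 and 176 for the mutant and 212, 197, 176 and 183 for rescue. All groups overlapped for *sdha-1*, and it passed in neither strain (adjusted p = 0.189 and 0.498).

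Across the paralogs, 7 ratios of counts within a sample were compared between strains by an exact two-sided permutation test, namely *asb-1* to *asb-2*, *asg-1* to *asg-2*, *sdha-2* to *sdha-1*, *ucr-2.3* to *ucr-2.1* and to *ucr-2.2*, *ucr-2.1* to *ucr-2.2* and *cyc-2.2* to *cyc-2.1*. The ratios of the *ucr-2* genes share counts. With 4 against 4 samples the smallest possible p-value is 0.0286, and over the 21 tests none was below 0.0667 after Benjamini-Hochberg adjustment. The log2 ratio of rescue lay below wild type in 6 of the 7, with a difference of -0.50 for *asb-1* (exact permutation p = 0.0286), -0.76 for *cyc-2.2* (0.0286), -0.47 for *ucr-2.3* to *ucr-2.1* (0.0286), -0.34 for *ucr-2.3* to *ucr-2.2* (0.0571), -0.32 for *sdha-2* (0.0857) and -0.16 for *asg-1* (0.0571). For mutant against wild type the 5 ratios of an autosomal to an X-linked gene differed by -0.18 to 0.02 with exact permutation p-values of 0.171 to 0.857, and that of *cyc-2.2* by -0.65 (0.0286). Between the X-linked pair, *ucr-2.1* counts per *ucr-2.2* count were 1.48 to 1.54 in wild type, 1.61 to 1.96 in the mutant and 1.63 to 1.70 in rescue. Both strains lay above wild type, by 0.20 and 0.13 on the log2 scale (exact permutation p = 0.0286 for each).

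**Figure D4:**
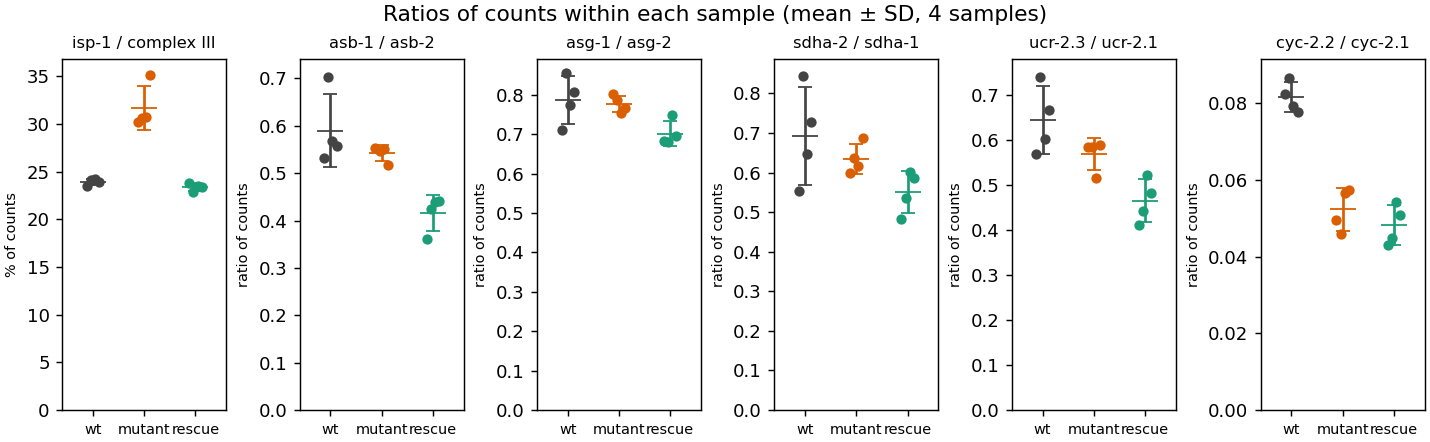
Ratios of counts within each sample (y axes from 0), with mean and SD over the 4 samples of each strain. The first panel gives *isp-1* as percent of all complex III member counts, which is 30.2 to 35.1% in the mutant and 22.8 to 24.2% elsewhere, and the others give 5 pairs of paralogs.

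Between rescue and mutant, *isp-1* was the only member called. It was lower in rescue, where 0.0763% of all tested genes were. Its call was known from these data beforehand, so this is no result about the members as a set. None was higher by edgeR (0.305% of all tested genes), 1 at an unadjusted p-value under 0.05 and none by DESeq2. By DESeq2, *asb-1*, *isp-1* and *ucr-2.3* were lower, which are also the 3 members whose groups did not overlap (7.15% of all tested genes were lower without overlap), a share of members of 7.14%. The median log2 fold change of the members was -0.02, against -0.00 over all genes, and 30 of the 42 lay below 0 (50.5% of all tested genes). With library size alone the median was 0.04. At an unadjusted p-value under 0.05, 7 members passed (17.1% of all tested genes), and at an adjusted p-value under 0.05, *isp-1* and *asb-1* were lower (0.426%) and none higher (1.25%).

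Members on the X chromosome and on the autosomes are given apart for this comparison, and the X-linked members also against wild type. All 6 X-linked members, *gas-1*, *ucr-2.2*, *ucr-2.1*, *asb-2*, *sdha-1* and *asg-2*, had log2 fold changes above 0, from 0.02 to 0.19, and none passed. Of the 36 autosomal members 6 were above 0. Over all tested genes, 65.4% of 2193 on X and 46.9% of 13470 on the autosomes were above 0, with medians of 0.09 and -0.01. The medians of the members were 0.08 and -0.04. Against wild type none of the 6 X-linked members lay above 0, with medians of -0.25 in the mutant and -0.14 in rescue. Among all tested genes on X, 63.7% and 74.5% lay above 0 against wild type, with medians of 0.10 and 0.20. These are values over genes from the same samples, 4 per strain, and carry no test.

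**Figure D5:**
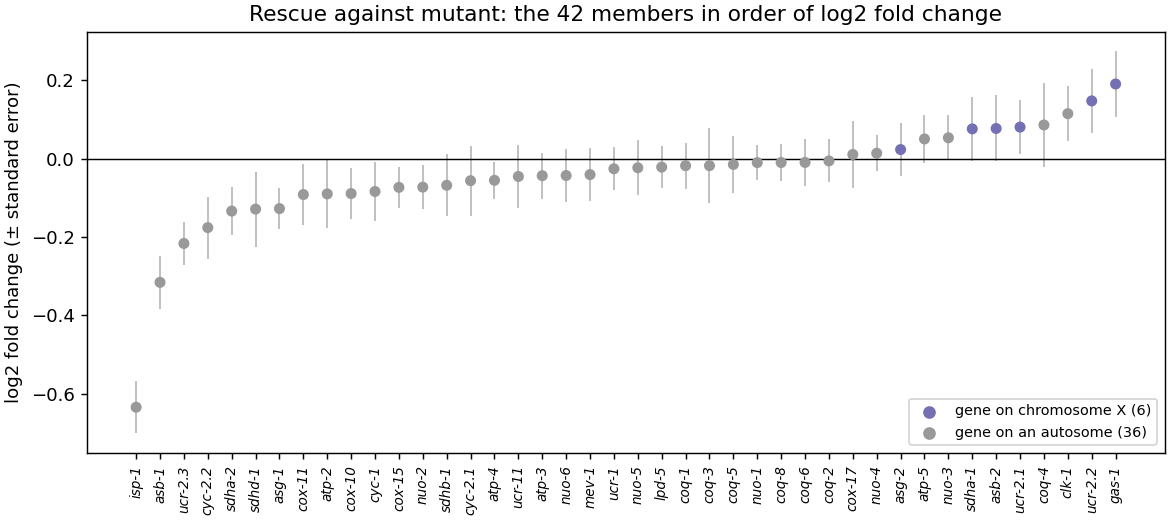
Log2 fold change of rescue against mutant (y axis, with standard error) for the 42 members in rising order, with X-linked genes in purple. *isp-1* lies at -0.63 below all others, and the 6 X-linked members lie between 0.02 and 0.19.

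The genes of ubiquinone synthesis summed to 85.6% of wild type in the mutant against 85.8% in rescue. In each strain 2 of the 8 were lower, where 9.01% and 13.5% of all tested genes were. The kinase-like gene *coq-8* was at 94.5, 86.2, 89.2 and 93.5 CPM for wild type, 66.9, 66.5, 66.0 and 68.4 for the mutant and 65.6, 69.9, 63.3 and 67.0 for rescue. The gap to wild type was wider than the spread within any group (-0.44, standard error 0.05, adjusted p = 6.73e-05, and -0.45, adjusted p = 3.5e-05). The methyltransferase gene *coq-5* fell likewise, by 0.42 and 0.44 (adjusted p = 0.00137 and 0.000669), and missed the threshold in both strains with the day block (adjusted p = 0.018 and 0.0109). By contrast *coq-6*, for a hydroxylase, lay above 0 in both strains without passing (0.09 and 0.08, adjusted p = 0.277 and 0.307). Levels of *clk-1* were 26.5, 29.6, 27.0 and 29.6 CPM for wild type, 23.1, 23.6, 25.2 and 27.6 for the mutant and 27.4, 25.4, 27.9 and 26.9 for rescue, and all groups overlapped (adjusted p = 0.0693 and 0.468).

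The TCA cycle, which feeds the chain with electrons, moved in the same direction. Of 15 enzymes on the list, 7 were lower in the mutant (9.01% of all tested genes) and 10 in rescue (13.5%). None was higher by edgeR or by DESeq2, and at an unadjusted p-value under 0.05 in edgeR none was higher in the mutant and 2 in rescue. In the mutant and in rescue, malate dehydrogenase (*mdh-2*) gave -0.45 and -0.49 on the log2 scale (adjusted p = 0.000627 and 0.000201), and citrate synthase (*cts-1*) gave -0.39 and -0.35 (adjusted p = 0.000577 and 0.000649). Their median log2 fold changes were -0.20 in the mutant and -0.22 in rescue, near those of the respiratory chain members.

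The counts were also taken without the wild type samples that stood apart. Without wild type replicates 1 and 3, 12 members were lower and *isp-1* higher in the mutant, and 16 were lower in rescue. Without wild type replicates 2 and 4, 13 were lower in the mutant and *isp-1* was not called (0.29, adjusted p = 0.02), and 19 were lower in rescue. Without mutant replicate 4, 10 members were lower in the mutant, and 11 were without mutant replicate 2 or without wild type replicate 3. No share of all tested genes is given for these fits, so fewer member calls and fewer calls over all genes cannot be told apart.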

How the data were processed

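RNA-Seq of 12 whole-worm samples, 4 per strain, was analysed. The authors estimated transcript abundance with Salmon against Ensembl 94 (WBcel235), collapsed it to genes, and deposited expected counts (estimated counts per gene, not normalized). A second deposited table of the same counts divided by size factors was not used. Software versions and use of strand are not given in the sources used here. Strand and position of genes came from Ensembl 115, in which 21714 of the 21882 genes were found.

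Expected counts were rounded. filterByExpr, TMM scaling and edgeR 4.0.16 (glmQLFit and glmQLFTest, R 4.3.3) were applied to all 12 samples in 1 model without a block, with Benjamini-Hochberg adjustment over 15728 genes and a threshold of 0.01. DESeq2 1.42.0 was an alternative. The method was tested on simulated data. Egg lays were separate, so replicates are separate populations of 1 strain each. A floor of 3 counts was at most 0.217 CPM, for counting error only.

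Per-sample values are given for *isp-1*, members called between rescue and mutant, the 3 largest rises and falls called against wild type, paralogs, *gas-1*, *lpd-5*, *mev-1* and *clk-1*, and further for *nuo-1*, *cyc-1*, *atp-2* and *coq-8*, which were chosen after their values were seen. Genes outside the members come from lists of complex I, III and V, TCA cycle and cell type genes and from the neighbours of *isp-1*. Members and lists were chosen with earlier results of these data known. Mutant and rescue samples with the same number share a collection day by the labels, and their deviations from the group means correlated at -0.14 to 0.15. Sequences were not analysed here.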

Additional observations from a re-analysis of the deposited data

Results flagged for a closer look

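In 192 groups of 4 samples, Dixon's criterion marked 8 in which 1 sample stood far from the other 3, and chance alone marks about 1 group in 20. For *isp-1* as percent of complex III member counts, mutant replicate 4 had 35.1%, with 30.7% the nearest and 30.2% the lowest. The same sample was highest for *coq-1* at 59.4 CPM (nearest 52.7) and for the summed ubiquinone synthesis genes at 287 CPM (nearest 269). Mutant replicate 3 had 0.514 *ucr-2.3* counts per *ucr-2.1* count, below 0.583 in the nearest.

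Wild type replicate 2 was highest for *cox-11* at 23.6 CPM (nearest 21.7) and lowest for *ucr-1* at 473 CPM (nearest 529). For *cox-17*, rescue replicate 3 stood at 9.07 CPM (nearest 8.21). For the neighbouring gene *F42G8.10*, wild type replicate 3 was lowest at 138 CPM (nearest 148).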

How the results depend on the processing

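The members' median log2 fold change stayed between -0.19 and -0.26 for mutant against wild type under the alternatives. For rescue against wild type it was -0.14 with library size alone, where the median of all genes was 0.14, and for rescue against mutant 0.037, where that of all genes was 0.06. No named call changed sign. The number of members lower in the mutant, 16, became 7 with collection day as a replicate block, 10 with only the 2 groups compared, 0 with only these and the day block, 26 at an adjusted p under 0.05 and 1 at 1.5-fold or more, and was 10 to 15 when 1 sample was left out. The 1 member higher in the mutant, *isp-1*, became 0 with the day block, with only the 2 groups, with both, without wild type replicates 2 and 4 and at 1.5-fold or more, and was 0 to 1 when 1 sample was left out. Of the 20 members lower in rescue than in wild type, 13 were left with library size alone, 0 with only the 2 groups and the day block, and 3 at 1.5-fold or more. The 1 member lower in rescue than in the mutant became 3 with DESeq2, 0 with the day block and 2 at an adjusted p under 0.05.

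For *isp-1* the mutant rise fell short with the day block (0.31), only the 2 groups (0.33), both (0.33) and without wild type replicates 2 and 4 (0.29), and ran from 0.27 to 0.36 when 1 sample was left out. Its fall in rescue against wild type fell short with library size alone (-0.21), the day block (-0.33), only the 2 groups with the day block (-0.35) and without wild type replicates 1 and 3 (-0.27), and ran from -0.35 to -0.28 when 1 sample was left out. Against the mutant it fell short with the day block (-0.63). The cause of these losses was not tested. With the replicate number as a block, which pairs mutant and rescue by day but not wild type, *isp-1* kept its calls (0.32, -0.31 and -0.63). With current symbols, an alternative chosen after seeing the data, 18 of 53 genes were lower in the mutant (9.01% of all tested genes) and 24 in rescue (13.5%).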
